A study of Mus musculus with 7 samples.

Results

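The genes described here are 9 genes of pacemaking and voltage-gated calcium entry, measured in the left ventricle of mouse embryos. They are the HCN channel genes Hcn2, Hcn3 and Hcn4, the L-type calcium channel genes Cacna1c and Cacna1d, the T-type calcium channel genes Cacna1g and Cacna1h, and the transcription factor genes Shox2 and Isl1. They were taken by name, with earlier results of these data known, and all 9 were found among the 23337 gene symbols of the count table. The study compared 5 control embryos, Tbx5+/+, with 2 embryos labelled mutant, Tbx5flox/flox, by sequencing of poly(A) RNA. All 7 carried the allele Gt(ROSA)26Sortm1(cre/ERT2)Tyj, which expresses CreERT2, a recombinase that tamoxifen activates, from the Rosa26 locus. That locus is active in most cell types, so the design does not restrict recombination to cardiomyocytes. Mothers of both groups received tamoxifen at E11.5 and the left ventricle was taken at E12.5, a day later in gestation. The labels name no litter, so p-values measure the spread between these samples alone.

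HCN channels open on hyperpolarization, bind cyclic AMP and carry the pacemaker current of the sinoatrial node. T-type calcium channels open at low voltage and contribute to pacemaker depolarization, while L-type channels carry the calcium current that triggers contraction, with CACNA1C the main pore subunit of working myocardium and CACNA1D important in nodal cells. SHOX2 and ISL1 are homeodomain transcription factors of the sinus venosus and sinoatrial node. Much of this set is also known from the embryonic ventricle, where Hcn4 and T-type channel genes are expressed before birth.

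The control libraries held 20385656 to 24440806 counts, and those labelled mutant 20268208 and 22680280. Values are given as CPM, the count of a gene scaled to a common library total. Tbx5 itself was not lower in the mutant-labelled libraries, at 93.9 and 114 CPM against 64.2 to 98.3 CPM in the controls. Exons outside the floxed part also add to this count, which therefore does not check the deletion, and directions below refer to libraries by their label. Xist was near 0 in control replicates 1 and 3 and ran from 311 to 509 CPM in the other 5 libraries. Of 5 marker genes of ventricular myocardium, all 5 were tested and none was called by edgeR, although 3 were higher and 1 was lower by unadjusted p at 0.05, while DESeq2 called Myh7 higher and Myl2 lower. These 2, named after their values were seen, lay above and below the control range in both mutant-labelled libraries. The summed level of the 5 was 19332 to 24374 CPM in the controls and 21472 and 24194 CPM in the mutant-labelled libraries.

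To compare levels between genes, CPM was divided by the exon length of each gene in kilobases. On this scale Cacna1h was the most abundant of the 9 genes in the control ventricle, at 6.20 ± 1.16 CPM per kb (SD, n = 5), and its range did not overlap that of the next gene. Cacna1c followed at 3.70 ± 0.687, Hcn4 at 2.93 ± 1.21, Shox2 at 1.95 ± 1.44, Cacna1g at 1.71 ± 0.522 and Cacna1d at 1.63 ± 0.354 CPM per kb. Among these 5 genes the ranges of neighbours overlapped, so the order of neighbours was not resolved. The lowest control of Cacna1c, at 2.86, still lay above the highest of Cacna1g (2.36) and of Cacna1d (2.02). Cacna1d did not overlap the next gene, Hcn3, although the lowest control of Shox2 reached down to that level. Hcn3, Isl1 and Hcn2 had 0.166 ± 0.0360, 0.147 ± 0.125 and 0.114 ± 0.0349 CPM per kb, with overlapping neighbours. In the mutant-labelled libraries Cacna1h and Cacna1c again headed the order, at 10.1 ± 1.17 and 6.14 ± 1.80 CPM per kb (SD, n = 2). Shox2 was there next to last, at 0.0641 ± 0.0251 CPM per kb. Before division by length, mean CPM was highest for Cacna1c. It had 56.4 CPM in the controls and 93.5 CPM in the mutant-labelled libraries, against 51.1 and 82.9 CPM for Cacna1h. The first place of Cacna1h therefore rests on the exon lengths used, 8.23 kb against 15.2 kb for Cacna1c, which join all annotated exons of a gene.

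Of the 9 genes, 7 passed the filter on low counts and were tested, while Hcn2 and Isl1 did not pass. Shox2 passed through its control libraries alone. In the edgeR quasi-likelihood test over 14691 genes with Benjamini-Hochberg adjustment, 1 of the 7 was called, Cacna1g, which was lower; of all genes tested 1.36% were called, 0.899% as lower and 0.463% as higher. At an unadjusted p under 0.05 there were 6 of the 7, against 17.6% of all genes. Both libraries labelled mutant lay outside the control range for 6 of the 9 genes, and for 5 of the 7 tested, against 20.2% of all genes tested. They were below it for Cacna1g, Cacna1d and Shox2 (10.4% of all genes tested), and for Isl1, which was not tested. They were above it for Cacna1h and Cacna1c (9.73%). Since the 9 genes were chosen with earlier results of these data known, these shares are no test of the set.

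**Figure D1:**
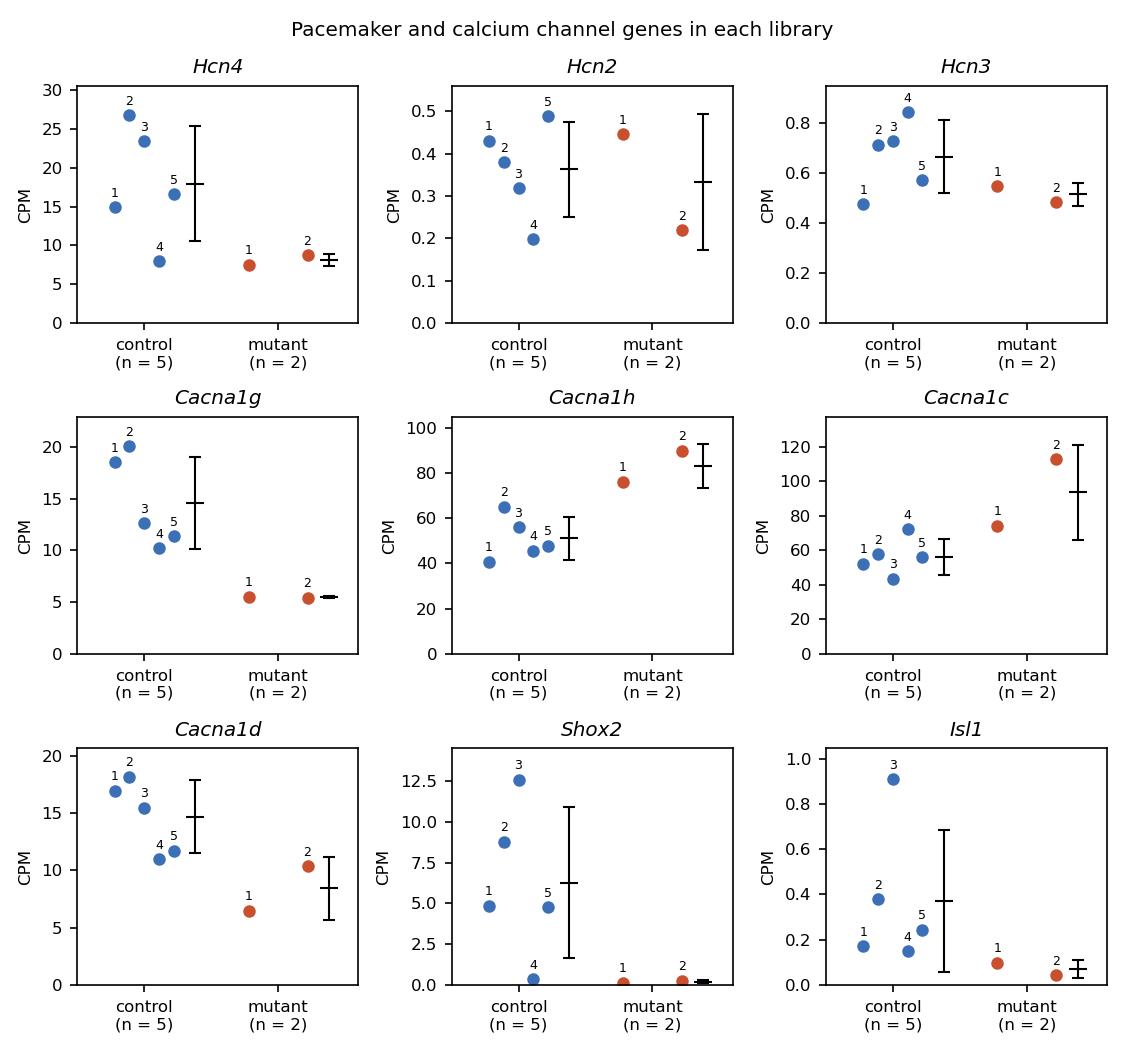
CPM of each of the 9 genes in every library, control in blue and mutant-labelled in red, with the replicate number at each point, the mean as a dash and the SD as the bar. Cacna1g, Cacna1d, Shox2 and Isl1 were below all 5 controls in both mutant-labelled libraries, Cacna1h and Cacna1c above, and control replicate 4 was the lowest control for Hcn4 and Shox2.

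Cacna1g, on chromosome 11 at 94408391 to 94474198 of GRCm38, encodes the T-type pore subunit Cav3.1. It had 18.5, 20.1, 12.6, 10.2 and 11.4 CPM in control replicates 1 to 5, and 5.55 and 5.43 CPM in the mutant-labelled libraries. The 2 mutant values were nearly the same and lay below every control, whose own values spread over a wider range. The group means were 14.6 ± 4.44 (SD, n = 5) and 5.49 ± 0.0881 CPM (SD, n = 2), and Cacna1g fell by 1.41 on the log2 scale (SE 0.28, edgeR quasi-likelihood adjusted p = 0.0427). The call was lost without control replicate 1 (edgeR adjusted p = 0.0818), 2 (0.0650) or 3 (0.0547). It was also lost without either mutant replicate, which leaves 1 sample in that group. The same held with limma-voom (adjusted p = 0.0905) and, in edgeR, with sex, as read from Xist, as covariate (0.135). The log2 fold change stayed between -1.81 and -1.26 over 18 alternatives, and between -1.50 and -1.26 with 1 library left out. Among the 5 libraries that expressed Xist it was -1.33 (adjusted p = 0.135). In whole tissue, fewer cells of a type and less RNA per cell cannot be told apart, here and for the genes below.

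Cacna1h, on chromosome 17 at 25374285 to 25433783, encodes the other T-type pore subunit of this set, Cav3.2. It had 40.7, 65.1, 55.9, 45.7 and 47.9 CPM in the controls and 76.1 and 89.8 CPM in the mutant-labelled libraries. Both mutant values exceeded the highest control, so the 2 T-type genes lay on opposite sides of the control range. The log2 fold change was 0.70 (SE 0.16) and just missed the threshold at an adjusted p of 0.0567 by the edgeR quasi-likelihood test. It passed without control replicate 2 (0.0409), without the filter on low counts (0.0499) and in DESeq2 (0.00268).

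Cacna1c, on chromosome 6 at 118587240 to 119196418, encodes the L-type pore subunit Cav1.2. Its level was 52.2, 57.8, 43.5, 72.3 and 56.1 CPM in the controls and 74.1 and 113 CPM in the mutant-labelled libraries. Mutant replicate 1 lay just above control replicate 4, the highest control, and mutant replicate 2 well above it. The log2 fold change was 0.73 (SE 0.19) with an adjusted p of 0.0874 by the edgeR quasi-likelihood test. Mutant replicate 2 carried much of this value, which was 0.41 without it (adjusted p = 0.611). The gene passed without mutant replicate 1 (0.0457), without control replicate 4 (0.0362) and in DESeq2 (0.00801).

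Cacna1d, on chromosome 14 at 30039939 to 30491455, encodes the L-type subunit Cav1.3, which opens at lower voltages than Cav1.2. It had 17.0, 18.2, 15.5, 11.0 and 11.7 CPM in the controls and 6.49 and 10.4 CPM in the mutant-labelled libraries. Both mutant values were below the lowest control, the second by a small margin. The log2 fold change was -0.79 (SE 0.24) with an adjusted p of 0.133 (edgeR quasi-likelihood), and -0.50 without mutant replicate 1 (0.330), while DESeq2 gave 0.0299. Cacna1d and Cacna1g ranked the 5 controls in the same order, highest in replicate 2, then 1, 3, 5 and 4.

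**Figure D2:**
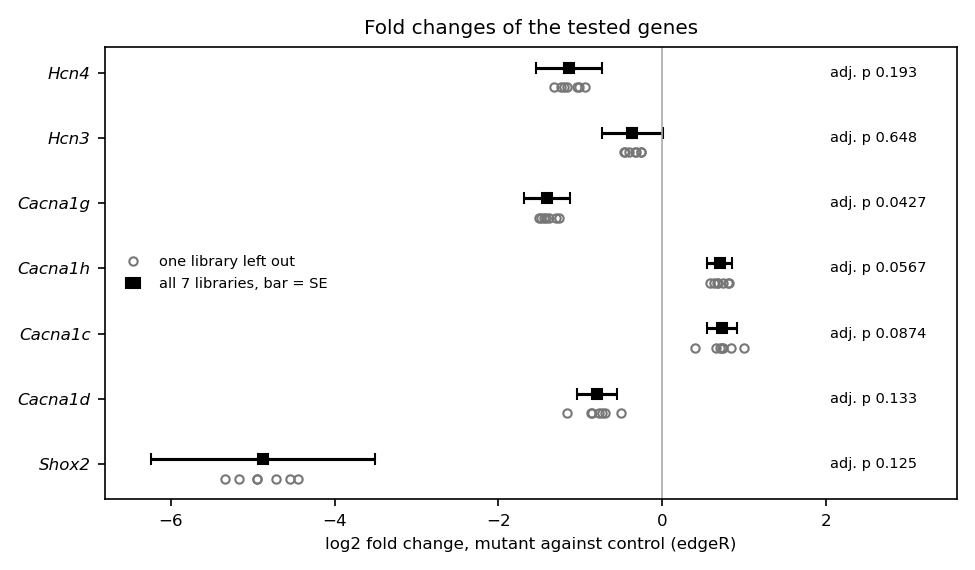
Log2 fold change of the 7 tested genes, mutant against control, with the SE as the bar, the edgeR adjusted p at the right, and open circles for the fits with 1 library left out. Cacna1g, Cacna1d, Hcn4, Hcn3 and Shox2 lay below 0 and Cacna1h and Cacna1c above 0 in every fit shown, and the value of Cacna1c moved most with mutant replicate 2, to 0.41.

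Because a ratio of 2 genes within a library does not depend on how libraries are scaled, 4 subtype ratios were compared, 3 of them given here, with a two-sided exact permutation test on all 21 assignments of libraries to groups, whose smallest p is 0.0476. Cacna1g had 0.455, 0.309, 0.226, 0.223 and 0.238 counts for each count of Cacna1h in the controls, and 0.0732 and 0.0607 in the mutant-labelled libraries. This log2 ratio was lower by a mean difference of -2.07 (exact permutation p = 0.0476, 0.0952 after Benjamini-Hochberg adjustment over the 4 ratios). Within the L-type pair the ratio of Cacna1c to Cacna1d was 2.81 to 6.56 in the controls and 11.4 and 10.9 in the mutant-labelled libraries, a log2 difference of 1.52 with the same exact permutation p of 0.0476 and adjusted p of 0.0952. Neither passed after adjustment, and of the 3 ratios given the groups did not overlap in these 2. That separation followed from the CPM ranges given above. In both mutant-labelled libraries Cacna1g and Cacna1d lay below every control, and Cacna1h and Cacna1c above every control. These 2 ratios therefore had to separate, and their exact permutation p of 0.0476 is not evidence apart from those ranges.

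Summed over both subtypes, T-type against L-type counts gave overlapping groups. This ratio was 0.672 to 1.16 in the controls and 1.01 and 0.773 in the mutant-labelled libraries, a log2 difference of -0.05 (exact permutation p = 0.905). The lack of a call does not show that the groups were equal. With any library left out, this test cannot reach 0.05.

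**Figure D3:**
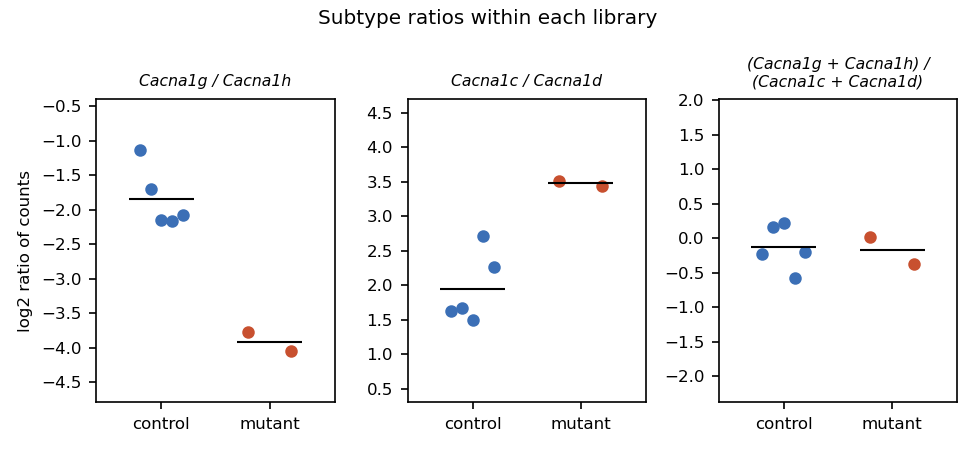
Log2 ratio of counts within each library for 3 subtype ratios, control in blue and mutant-labelled in red, with the group mean as a line and the same span on every axis. The mutant-labelled libraries lay apart from the controls for Cacna1g to Cacna1h, at -3.77 and -4.04, and for Cacna1c to Cacna1d, at 3.51 and 3.44, and among the controls for T-type to L-type.

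Hcn4 encodes the main pacemaker channel of the sinoatrial node. Its level was 14.9, 26.8, 23.4, 7.97 and 16.6 CPM in control replicates 1 to 5 and 7.53 and 8.71 CPM in the mutant-labelled libraries. Control replicate 4 lay between the 2 mutant values, so the groups overlapped, while the other 4 controls were all higher. The means were 17.9 ± 7.38 (SD, n = 5) and 8.12 ± 0.831 CPM (SD, n = 2), a log2 fold change of -1.14 (SE 0.40) with an adjusted p of 0.193 by the edgeR quasi-likelihood test. Without control replicate 4 the value was -1.32 and passed (adjusted p = 0.0293).

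Shox2, on chromosome 3 at 66971727 to 66981771, was counted 113, 185, 277, 7 and 117 times in the controls, replicates 1 to 5, against 3 and 6 times in the mutant-labelled libraries. Control replicate 4 was thus near the mutant-labelled libraries and far below the other 4 controls, although the groups did not overlap. In CPM these were 4.86, 8.78, 12.6, 0.346 and 4.76 against 0.149 and 0.263. The log2 fold change was -4.87 (SE 1.37), the largest of the 7 in size, with an adjusted p of 0.125 by the edgeR quasi-likelihood test. Over both groups the rate of Shox2 counts in the mutant-labelled libraries was 0.0333 of that in the controls, with an exact 95% interval of 0.0152 to 0.0637 that covers counting error only. The spread among controls was wide, with a biological coefficient of variation of 0.730 for Shox2 and 0.308 for Hcn4, against a common value of 0.128 over all genes. Without control replicate 4 Shox2 passed at -5.17 (adjusted p = 0.00461), and DESeq2 gave an adjusted p of 0.00265 with all 7 libraries. Since the gene passed the filter through its controls, the fit without a filter also bears on it, and its edgeR quasi-likelihood adjusted p was 0.258. Beside Shox2 and Hcn4, the summed level of 5 other markers of sinus venosus and node, among them Tbx18, Tbx3, Vsnl1 and Smoc2, was 115 CPM in control replicate 4, 123 to 147 CPM in the other controls and 65.2 and 68.6 CPM in the mutant-labelled libraries, and its part in the result was not tested.

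The 250 bases before the RefSeq starts of Hcn4 and Shox2 are shown because these 2 nodal genes passed the test when control replicate 4 was left out, and because T-box factors such as TBX5 bind the half-site AGGTGT. That choice was made after the values were seen, and Cacna1g and Cacna1c passed in the same fit. The sequences are from RefSeq on GRCm38.p6, Hcn4 on the plus strand at chr9:58822699-58822948 and Shox2 on the minus strand at chr3:66981772-66982021, read 5′ to 3′ along each gene, and capitals mark a match to AGGTGT on either strand.
Hcn4: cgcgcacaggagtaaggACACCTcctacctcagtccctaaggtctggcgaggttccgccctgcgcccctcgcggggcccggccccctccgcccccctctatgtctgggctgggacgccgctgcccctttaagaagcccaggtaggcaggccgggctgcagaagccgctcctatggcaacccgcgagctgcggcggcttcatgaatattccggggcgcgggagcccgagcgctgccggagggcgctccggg
Shox2: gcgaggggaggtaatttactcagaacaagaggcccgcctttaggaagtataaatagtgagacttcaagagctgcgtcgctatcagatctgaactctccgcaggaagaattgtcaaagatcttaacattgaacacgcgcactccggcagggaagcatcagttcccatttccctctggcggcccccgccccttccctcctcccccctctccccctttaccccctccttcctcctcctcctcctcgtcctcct
The RefSeq start of Hcn4 lies upstream of its GENCODE start at 58823412. Hcn4 held 1 match, on the opposite strand with its first base at position -233 from the start, and Shox2 held none. Of 32851 windows of this length in the RefSeq table, 11.8% held a match on either strand. The longer motif AGGTGTGA, which contains the first, stood in 1.12% of the windows and in neither of these. Windows were found for 6 of the 9 genes, Hcn2, Hcn4, Cacna1c, Cacna1d, Shox2 and Isl1, and 1 of their 9 windows, that of Hcn4, held AGGTGT. G and C made up 71.2% of the Hcn4 window and 55.6% of that of Shox2.

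Isl1 was barely detected in this tissue, with 4, 8, 20, 3 and 6 counts in the controls and 2 and 1 in the mutant-labelled libraries. Control replicate 3 held nearly as many counts as the other 4 controls together, and it was also the highest control for Shox2. The rate in the mutant-labelled libraries was 0.189 of that in the controls, with an exact 95% interval of 0.0375 to 0.594 from counting error alone. The gene failed the filter, and without a filter its edgeR quasi-likelihood adjusted p was 0.270.

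Hcn2 and Hcn3, which encode the other HCN channels of the set, were near the limit of detection. Hcn2 had 10, 8, 7, 4 and 12 counts in the controls and 9 and 5 in the mutant-labelled libraries, which overlapped. Without a filter its edgeR quasi-likelihood adjusted p was 0.919. Hcn3 had 11, 15, 16, 17 and 14 counts in the controls and 11 and 11 in the mutant-labelled libraries, a log2 fold change of -0.36 (SE 0.37) with an edgeR adjusted p of 0.648. No difference in either gene was detectable at this depth.

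The authors' deposited table of significant genes listed 668 genes, all of them among the 14691 tested here. It held 6 of the 9 genes described here, which were chosen with earlier results of these data known, so that count is no test of the set. In the authors' deposited table the log2 fold changes were -1.41 for Cacna1g, 0.69 for Cacna1h, 0.73 for Cacna1c, -0.80 for Cacna1d, -1.15 for Hcn4 and -4.89 for Shox2. The false discovery rates in the authors' deposited table were 2.75e-05, 0.000407, 0.00151, 0.0238, 0.0193 and 4.24e-05 in the same order. Over all 668 genes these fold changes differed from those computed here by a median of 0.0054 on the log2 scale, while 5 of the 6 genes did not pass the quasi-likelihood test used here. Over the alternatives the adjusted p ran from 0.00254 to 0.451 for Cacna1h, 0.00137 to 0.611 for Cacna1c, 0.000745 to 0.441 for Cacna1d, 6.73e-05 to 0.636 for Hcn4 and 8.72e-09 to 0.599 for Shox2.

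Of 11 genes of HCN channel partners and relatives, all 11 were tested and none was called by edgeR, while DESeq2 called 3 lower. By unadjusted edgeR p, 2 were higher and 3 lower at 0.05, and the median log2 fold change was -0.0047, against -0.0080 over all genes tested. Of 18 genes of cyclic AMP synthesis and breakdown, 17 were tested and none called by edgeR or DESeq2, with 1 higher and 1 lower at an unadjusted edgeR p under 0.05 and a median of -0.0091.

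Of the 6 other pore subunit genes of voltage-gated calcium channels, 4 were tested and none was called by edgeR or DESeq2, with 1 higher at an unadjusted edgeR p under 0.05. Cacna1a, the P/Q-type subunit, stood in log2 fold change at 0.19 (SE 0.20), and Cacna1e, the R-type subunit, at 0.91 (SE 0.32), with edgeR adjusted p of 0.660 and 0.177. Of 16 auxiliary subunit genes, 10 were tested and none called by edgeR, with a median of 0.09 and, by unadjusted p at 0.05, 3 higher and 1 lower. Cacng6, named after its values were seen, was called higher by DESeq2 and, in edgeR, without control replicate 4, and Cacna2d1, named likewise, without mutant replicate 1. Cacna2d2, an alpha2delta subunit, was at 53.0, 72.3, 80.2, 24.4 and 51.4 CPM in the controls and 12.2 and 29.2 CPM in the mutant-labelled libraries. Control replicate 4 again lay between the mutant values, and the adjusted p of its log2 fold change of -1.43 (SE 0.49) was 0.190 by edgeR. The value was -0.94 without mutant replicate 1 (edgeR adjusted p = 0.439) and -2.19 without mutant replicate 2 (0.458). Cacnb2, the main cardiac beta subunit, was at 0.20 (SE 0.09) with an edgeR adjusted p of 0.316. Of 14 regulators of L-type channels, among them calmodulin and RGK protein genes, 13 were tested and none called by edgeR or DESeq2, with 1 higher and 1 lower at an unadjusted edgeR p under 0.05 and a median of -0.10.

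Of 17 genes of the sinoatrial programme, all tested, 2 were called lower and none higher by edgeR, against 0.899% and 0.463% of all genes tested. The log2 fold change was below 0 for 13 of them, with a median of -0.94. At an unadjusted edgeR p under 0.05, 10 were lower and 2 higher, against 17.6% of all genes in either direction. DESeq2 called 9 lower and 1 higher, against 434 lower and 349 higher of 14943 genes. Of the 2 called by edgeR, 1 was Smoc2, a secreted calcium-binding matrix protein, at -1.13 (SE 0.19, edgeR adjusted p = 0.0240). Smoc2 was not called by edgeR without control replicate 1 (adjusted p = 0.0589), or with sex from Xist as covariate or restriction. Its call was also lost without either mutant replicate, which leaves 1 sample in that group, and with control replicate 5 and mutant replicate 2 both left out. Without control replicate 4 the number called lower was 8, among them Tbx3, Vsnl1, Cpne5, Rgs6 and Kcnj5, names chosen after their values were seen, and over all genes of that fit 182 of 14648 were called lower. Without either mutant replicate it was 0. Tbx3, a T-box repressor that keeps nodal cells from a working myocardial state, was named after its values were seen. It had 11.6, 15.4, 14.7, 4.55 and 10.3 CPM in the controls and 1.54 and 3.41 CPM in the mutant-labelled libraries. The log2 fold change was -2.18 (SE 0.50) with an edgeR adjusted p of 0.0711. DESeq2 called Tbx3 lower, and its false discovery rate in the authors' deposited table was 2.45e-05.

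Of 14 partners and targets of SHOX2 and ISL1, 13 were tested and 1, Mef2c, a MADS-box factor, was called higher, against 0.463% of all genes tested. Its log2 fold change was 0.45 (SE 0.09, edgeR adjusted p = 0.0374), and the list median was -0.10. DESeq2 called 1 gene of this list higher and 1 lower. Leaving out control replicate 1, 2, 3 or 4 ended the edgeR call of Mef2c, with adjusted p of 0.0975, 0.0952, 0.0710 and 0.0544. It was also lost without mutant replicate 2, which leaves 1 sample in that group, and with control replicate 5 and mutant replicate 2 both left out. The same held with limma-voom, and in edgeR with sex from Xist as covariate or restriction. The cardiac factors Tbx20 and Gata4 of this list stood at -0.10 (SE 0.15) and 0.17 (SE 0.08) in log2 fold change, neither of them called. Of 12 genes of the ventricular conduction system, 11 were tested and 1, Gja5, was called lower, against 0.899% of all genes tested. The list median was -0.15, and DESeq2 called 1 gene of the list higher and 2 lower. Gja5 encodes connexin 40, a gap junction protein of trabeculae and conduction tissue, and stood in log2 fold change at -1.77 (SE 0.34, edgeR adjusted p = 0.0471). It was not called by edgeR without control replicate 1 (adjusted p = 0.0641) or 2 (0.0801). The call was also lost without either mutant replicate, which leaves 1 sample in that group, and with control replicate 5 and mutant replicate 2 both left out. The same held without scaling factors, without the filter on low counts, and with sex from Xist as covariate or restriction. Hopx and Id2, the most abundant others of this list, were at 0.27 (SE 0.09) and -0.19 (SE 0.17), and edgeR called neither.

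**Figure D4:**
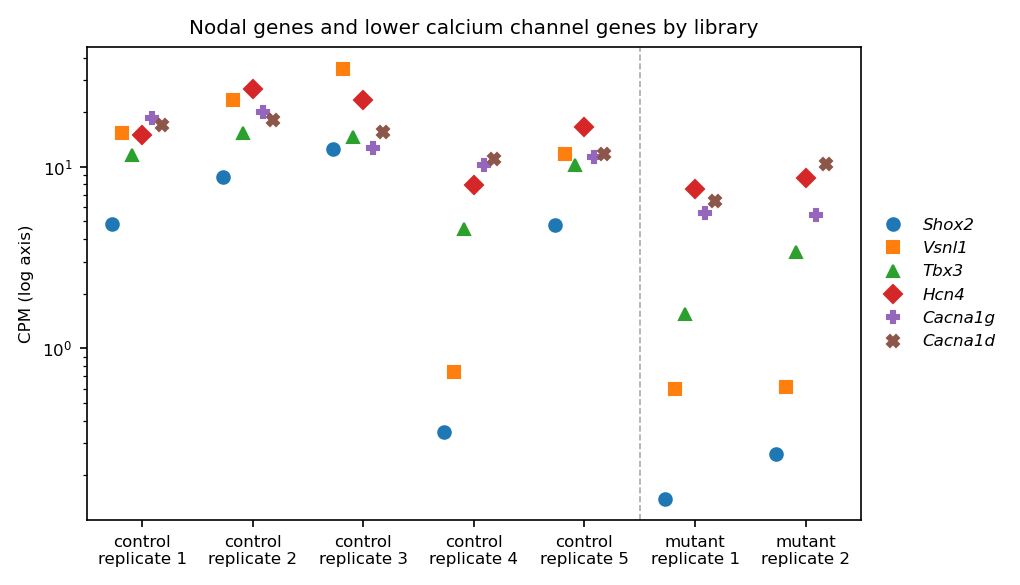
CPM on a log axis of 6 genes in each library, with the mutant-labelled libraries to the right of the dashed line. For Shox2, Vsnl1, Tbx3 and Hcn4, control replicate 4 was the lowest control, with Shox2 at 0.346 and Vsnl1 at 0.742 CPM, and the same held for Cacna1g and Cacna1d, with Cacna1g at 10.2 CPM there against 5.55 and 5.43 CPM in the mutant-labelled libraries.

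The genes whose log2 CPM over the 7 libraries was most like that of Shox2, among 12312 genes of at least 1 CPM, were Gata5 (Pearson r = 0.997), Vsnl1 (0.996) and Wnt2 (0.991). Vsnl1, a neuronal calcium sensor family gene known from the sinoatrial node, had 15.4, 23.5, 34.8, 0.742 and 11.8 CPM in the controls and 0.595 and 0.613 CPM in the mutant-labelled libraries. Like Shox2 it was highest in control replicate 3 and lowest, among the controls, in replicate 4. For Hcn4 the most similar were Angel1 (0.983), Wnt2 (0.983) and a row whose symbol had been turned into a date (0.975). For Cacna1g they were Cpxm1 (0.993), Dhrs7 (0.979) and Cybrd1 (0.968). These values describe 7 libraries of which some fall into separate groups, and no p is given.

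Marker lists of other cell types gave the following counts and summed levels. Of all genes tested, edgeR called 0.899% lower and 0.463% higher. The 8 markers of sinus venosus and node include Shox2, Isl1 and Hcn4. Of these 8, 7 were tested and 1, Smoc2, was called lower by edgeR (6 without control replicate 4), and the sum of all 8 was 124 to 184 CPM in the controls and 72.9 and 77.6 CPM in the mutant-labelled libraries. Of 10 atrial markers, all tested, 6 were called lower. The summed level of the 10 was 3153 CPM in control replicate 4, up to 5238 CPM in the other controls and 3203 and 3453 CPM in the mutant-labelled libraries. Most of that sum was Myl4, named after its values were seen, which was not called. Myl4 had 2315 to 3529 CPM in the controls and 2679 and 2895 CPM in the mutant-labelled libraries. Of 8 outflow and second heart field markers, 5 were tested and 1 called lower, with sums of 59.2 to 69.8 CPM in the controls and 36.8 and 48.1 CPM in the mutant-labelled libraries. Of 9 markers of cushion mesenchyme, all tested, 7 were called lower, with sums of 2196 to 3750 against 1289 and 1305 CPM. Of 8 macrophage markers, 3 were called lower, with sums of 192 to 272 against 126 and 186 CPM. Of 12 neuronal and neural crest markers, 10 were tested and none called by edgeR or DESeq2, with 1 lower at an unadjusted edgeR p under 0.05 and sums of 13.1 to 17.4 against 12.8 and 13.2 CPM. These calls depended on the fit. With sex from Xist as covariate, edgeR called 2 atrial and 3 cushion markers lower, and 0 of node, outflow and macrophages. Without control replicate 1 or 2 it called 0 macrophage markers. DESeq2 called 6 node, 6 atrial, 2 outflow, 9 cushion and 4 macrophage markers lower and 0 higher. No gene of the 6 lists of this paragraph was at 0 in all libraries, and their part in the values of the 9 genes was not tested.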

How the data were processed

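Poly(A) RNA of 7 left ventricles, 5 control and 2 labelled mutant by their titles, was analysed from the deposited count table, whole-number counts per gene symbol with no normalization. The submitters' processing notes name build mm10 with TopHat2 (2.1.1), featureCounts, edgeR (3.16.5), limma (3.30.13) and R (3.3.2); annotation and strand setting were not stated. The library kit named in the labels does not mark strand, so antisense reads cannot be told apart, and antisense exons of GENCODE vM21 cover 711 of 4002 exon bases of Hcn3, 587 of 8982 of Cacna1d, 158 of 8234 of Cacna1h and 153 of 3208 of Shox2. The authors' deposited table of significant genes holds a log fold change, read as log2 from its match to the values computed here, with p-values and false discovery rates.

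Genes were filtered with filterByExpr (minimum count 10, total 15), leaving 14691 of 23337, scaled by TMM and tested in edgeR 4.0.16 under R 4.3.3 (robust quasi-likelihood, genotype alone), with Benjamini-Hochberg adjusted p under 0.05 as the call. The SE is the log2 fold change over the square root of F. Log2 CPM used a prior count of 2 and ratios a pseudocount of 0.5. Replicates differed by more than sampling noise, with chi-square per degree of freedom of 10.5 to 33.6. The code was tested on simulated data. Positions and exon lengths are GENCODE vM21 (GRCm38), and promoter windows RefSeq GRCm38.p6.

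The 9 genes and all lists were chosen with earlier results of these data known. Named are the 9 genes, up to 4 called genes of each pathway list, up to 2 abundant ones where fewer than 2 were called (counts alone for cyclic AMP, HCN partner and L-type regulator genes), and the 3 genes most like Cacna1g, Hcn4 and Shox2 by Pearson r. Results of some genes are not reported here; these genes stay in the fit, in the counts of their lists and in the adjustment over 4 ratios. Marker lists are given by counts and sums; beside those in the results, edgeR called none of 9 endothelial, 7 red cell and 5 smooth muscle markers (at an unadjusted p under 0.05 there were 0, 0 and 3), DESeq2 called none of the endothelial and red cell markers but Myocd higher and Cnn1 lower among those of smooth muscle, both named after their values were seen, and edgeR called 1 of 8 epicardial and 1 of 10 cardiomyocyte markers lower. Alternatives were DESeq2 1.42.0, limma-voom (limma 3.58.1), 2 other scalings, no filter, no robust estimation, fits lacking each library or both control replicate 5 and mutant replicate 2, the replicate block, sex from Xist (over 10 CPM) as covariate or restriction, and no haemoglobin genes.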

Additional observations from a re-analysis of the deposited data

Results flagged for a closer look

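One value stood apart from its group by Dixon's test at the 95% level, among 26 groups of 5 control libraries examined, where chance flags about 1 in 20. Cacnb2, the beta subunit gene of cardiac calcium channels, was at 45.9 CPM in control replicate 5, and the next control was at 40.0 CPM. The gap was 0.799 of the control range, above the critical value of 0.71. The libraries labelled mutant were at 44.2 and 49.0 CPM, on both sides of that control.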

How the results depend on the processing

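The 7 tested genes of the set kept their direction in all 18 alternative fits. The number of them called, 1 with all libraries, was 5 in DESeq2 (Cacna1c, Cacna1d, Cacna1g, Cacna1h and Shox2), 0 with limma-voom, 2 without the filter on low counts, and 0 with control replicate 5 and mutant replicate 2 both left out, with sex as a covariate, or among the libraries with Xist over 10 CPM. With 1 library left out it ran from 0 to 4, the 4 without control replicate 4 being Cacna1c, Cacna1g, Hcn4 and Shox2. Over all genes the count of 200 became 783 in DESeq2 (349 higher, 434 lower), 114 with limma-voom, 52 with both those libraries left out, 60 with sex as a covariate and 66 among the libraries with Xist, and it ran from 12 (without mutant replicate 2) to 275 with 1 library left out; the cause was not tested, except that fewer samples entered some fits. The 2 replicate numbers that both groups share did not pair the samples (correlations of deviations 0.08 and 0.01), and with the replicate number as a block the counts were 811 genes and 6 of the set. In that block fit control replicates 3 to 5 stand alone in their blocks, so it compares 2 controls with the 2 mutant-labelled libraries. Of the subtype ratios, Cacna1g to Cacna1h and Cacna1c to Cacna1d kept their direction in all 10 alternatives, between -2.201 and -1.89 and between 1.41 and 1.72 with 1 library left out. T-type to L-type ran from -0.25 to 0.14 and turned with medians (0.0159), without control replicate 2 (0.02), control replicate 3 (0.03) or mutant replicate 2 (0.14), and with both libraries left out (0.12). Cacna1a ran from -0.20 to 0.49 with 1 library left out and turned without mutant replicate 2 (-0.20) and with both libraries left out (-0.21), and Tbx20 without mutant replicate 1 (0.0532). Counts of a few reads per library limit Hcn2, Hcn3 and Isl1.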
